A study of Bos grunniens and Bos grunniens x Bos taurus with 2 samples.

Results

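Lymphocytes of the testis that carried transcripts of cytotoxic cells, but none of the T cell receptor delta chain gene *TRDC*, are described here in yak and in its hybrid with cattle. A cell was taken as a member when its unique molecular identifiers (UMIs, 1 for each captured RNA molecule) of *CCL5*, *NKG7* and *CST7* added up to at least 4. It also had to hold no UMI of *TRDC*, none of *IL7R*, *ICOS* or *CD28*, none of *CDH5*, *DCN* or *LMOD1*, and a mitochondrial share under 30%. The rule found 894 members among 18734 cells under the mitochondrial limit and 20921 cells in all. The yak library gave 692 members of 11114 cells (6.23%, exact binomial 95% interval 5.78 to 6.69) and the cattle-yak library 202 of 7620 (2.65%, 2.30 to 3.04). The members were thus chosen by measured counts of these genes, and the levels of the rule genes are given as a description.

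The series consists of 1 droplet library of testis from yak (*Bos grunniens*) and 1 from cattle-yak (*Bos grunniens* x *Bos taurus*), both labelled as past sexual maturity. The tissue was frozen, thawed, dissociated with enzymes and sieved, and no sort for a cell type is named, although the label of both libraries reads Germ cell. The yak library came from 1 animal, and the number of hybrid animals is not given in the sources used here. With 1 library on each side there is no replicate, so no test was run, all intervals cover counting error only, and a difference between the libraries compares these libraries and not the crosses. The libraries held 60816600 and 43774841 UMIs in 11991 and 8930 cells, and 877 and 1310 cells failed the mitochondrial limit. They shared 24 cell barcodes, of which 2 belonged to yak members and 1 to a cattle-yak member.

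Cytotoxic lymphocytes kill infected or altered cells by releasing perforin and granzymes from granules or by engaging death receptors through ligands such as Fas ligand. They include CD8 T cells, whose receptor pairs an alpha with a beta chain, gamma delta T cells, and natural killer cells, which lack a T cell receptor and read the balance of activating and inhibitory receptors. All T cell receptors reach the surface with the CD3 chains, and the delta chain gene lies inside the alpha chain locus, where joining the alpha segments deletes it. In the testis, lymphocytes lie in the interstitium between the tubules, outside the barrier that Sertoli cells form around the later germ cells.

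*CCL5*, a chemokine of activated cytotoxic cells, carried most of the rule. It was counted in 99.6% of yak and 97.0% of cattle-yak members, whereas *NKG7*, a granule membrane protein, was counted in 63.6% and 63.4%. *CST7*, which encodes the granule protease inhibitor cystatin F, was counted in 66.9% and 64.4%. The summed level of *CCL5*, in UMIs per 1000000 UMIs of the group (CPM), was 6749 in yak members and 4520.0 in cattle-yak members. The 3 genes gave a median of 15 UMIs in yak members (quartiles 10 and 25, highest 92) and 12 in cattle-yak members (7 and 22, highest 52). All 3 genes were present in 313 yak and 81 cattle-yak members, and 105 and 31 members had only 1 of them.

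Just inside the limit of 4 UMIs stood 33 yak and 17 cattle-yak members, and just outside, at 3 UMIs, 56 and 28 cells that passed all other terms. A UMI of a CD3 or T cell receptor gene was found in 75.8% of the cells just inside and 53.6% of those just outside in yak, and in 82.4% and 78.6% in cattle-yak. Free RNA in the droplets can place such UMIs in any cell. Endothelial-gated cells (*CDH5* and *VWF* of at least 4 UMIs together, no *DCN* or *LMOD1*), which should lack the rule genes, reached 4 UMIs of them in 24 of 485 yak cells (4.95%) and 3 of 189 cattle-yak cells (1.59%). Their median depth was 8429 and 9912 UMIs, against 1769 and 2245 for members.

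The members were shallow cells with few genes. They held a median of 697.5 genes in yak and 732.5 in cattle-yak, and a median mitochondrial share of 14.5% and 21.6%. Their UMIs added up to 1626283 and 546023. A count of 0 in all members was taken to allow 3 UMIs, a level of up to 1.84 CPM in yak and 5.49 CPM in cattle-yak. The remaining marker genes named for these cells followed the rule genes. *EOMES*, a T-box transcription factor of cytotoxic lymphocytes, stood at 103 CPM (87.7 to 119) in yak members against 9.39 CPM in all other cells, and at 38.5 CPM (23.8 to 58.8) against 3.79 in cattle-yak. *GZMM*, a granzyme, stood at 137 CPM (119 to 156) against 14.9 and at 87.9 CPM (64.8 to 117) against 4.91. Both genes were several-fold higher in members than in the other cells of either library, but were counted in few members. *EOMES* was found in 15.0% of yak members (8.29% after every cell was thinned to 1000 UMIs) and 5.94% of cattle-yak members (2.04%), and in 1.03% and 0% of endothelial-gated cells.

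Most members carried transcripts of the T cell receptor complex. In the study's gene tables, ENSBGRG00000008096 is described as the alpha constant region of the receptor and ENSBGRG00000007369 as a beta constant region. A UMI of these, or of *CD3D*, *CD3e* or *CD3G*, was present in 643 of 692 yak members (92.9%, 90.7 to 94.7) and in 187 of 202 cattle-yak members (92.6%, 88.0 to 95.8). After thinning, which left out 53 and 6 shallower members, the shares were 85.8% (82.8 to 88.4) and 81.6% (75.5 to 86.8). The same genes were found in 15.7% and 7.9% of endothelial-gated cells before thinning, so most of the signal in members lay above the background of free RNA. After thinning the endothelial shares were 3.3% and 1.1%. Thinning took more UMIs from these deeper cells, so the thinned shares can understate that background. Most members of both libraries thus carried transcripts of the receptor complex, some of which natural killer cells can also transcribe.

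**Figure D1:**
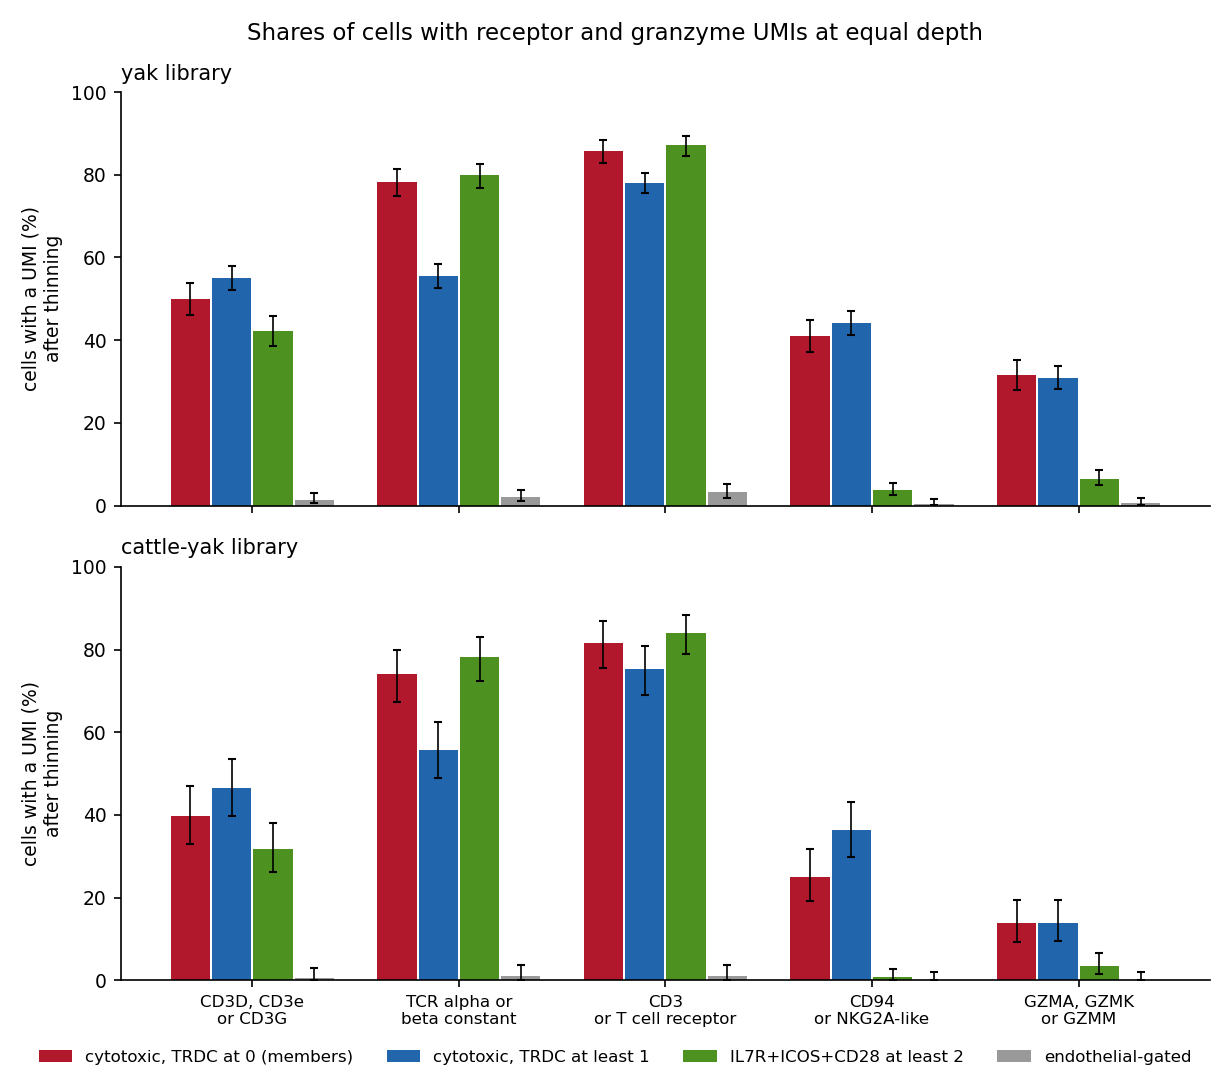
Share of cells (percent, y axis) with a UMI of 5 gene sets after thinning to 1000 UMIs, for members, *TRDC*-positive cells, *IL7R*, *ICOS* and *CD28* cells and endothelial-gated cells, in the yak and the cattle-yak library, with bars for the exact binomial 95% interval. CD3 or T cell receptor genes were found in 85.8% of yak and 81.6% of cattle-yak members against 3.3% and 1.1% of endothelial-gated cells.

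Alongside the receptor chains, members carried receptors shared by natural killer cells and cytotoxic T cells. ENSBGRG00000020643 is described as CD94 and ENSBGRG00000021140 as an NKG2A-like chain, which pair into an inhibitory receptor for nonclassical MHC class I. A UMI of either was found in 360 yak members (52.0%, 48.2 to 55.8) and 81 cattle-yak members (40.1%, 33.3 to 47.2), and in 41.0% and 25% after thinning. Granzyme genes (*GZMA*, *GZMK* or *GZMM*) were found in 308 (44.5%) and 57 (28.2%) members, and in 31.5% and 13.8% after thinning. In endothelial-gated cells the receptor pair was found in 2.5% and 1.6%, and granzymes in 3.3% and 0%, before thinning.

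In members with fewer than 5 UMIs of any 1 list of another cell type, CD94 and the NKG2A-like chain were met in the same thinned cell in 63 of 602 yak members (10.5%, where independent detection would give 6.88%) and in 9 of 184 cattle-yak members (4.89%, against 2.44%). CD94 and the alpha constant region were met together in 13.3% of those yak members, where 14.1% would follow from independence, and in 5.43% against 5.83% in cattle-yak. The NK-type receptor and the alpha chain were thus counted in overlapping members, at about the rate that independent detection gives in these sparse counts.

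The gate of cytotoxic cells splits at *TRDC*, and the T cell receptor alpha constant region followed that split. Cells that met every other term but held 1 or more UMIs of *TRDC* numbered 1170 in yak and 223 in cattle-yak, so members made up 37.2% and 47.5% of the gate. The alpha constant region stood at 554 CPM (518 to 591) in yak members and 234 CPM in *TRDC*-positive cells, a log2 ratio of 1.24 (1.10 to 1.39). In cattle-yak it stood at 573 CPM (511 to 640.4) and 121, a log2 ratio of 2.23 (1.85 to 2.65). Both ratios, computed with 1 CPM added to each side, were larger once cells with 5 or more UMIs of any 1 list of another cell type (marked cells, described further on) were left out, at 1.42 and 2.54. Thinned to equal depth, 44.9% of yak members and 17.6% of *TRDC*-positive cells held a UMI of it, and 41.3% and 8.37% in cattle-yak, beside 0.62% and 1.06% of endothelial-gated cells.

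The beta constant region was closer between the 2 sets. It stood at 1174 CPM (1122 to 1228) in yak members and 752 in *TRDC*-positive cells, and at 1308 CPM (1213 to 1407) and 864 in cattle-yak. The log2 ratios were 0.64 (0.55 to 0.73) and 0.60 (0.43 to 0.77), and 0.83 and 0.78 without marked cells. Beta transcripts were therefore abundant on both sides of the split, while alpha transcripts differed by more.

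The share of cells with the alpha constant region stepped down between 0 and 1 UMI of *TRDC* and showed no further steady decline. It was 59.2% (55.5 to 62.9) at 0 UMIs, 29.0% (23.2 to 35.4) at 1, 25.1% at 3, 29.4% at 5 and 33.3% (24.3 to 43.4) at 10 or more in yak. In cattle-yak it was 66.3% (59.4 to 72.8) at 0, 22.2% at 1, 21.9% at 3 and 12% at 10 or more, with 9 to 35 cells in each class between 1 and 9 UMIs. Cells with 1 UMI of *TRDC* thus stood near cells with more of them, and apart from the members, within the counting error of these classes.

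**Figure D2:**
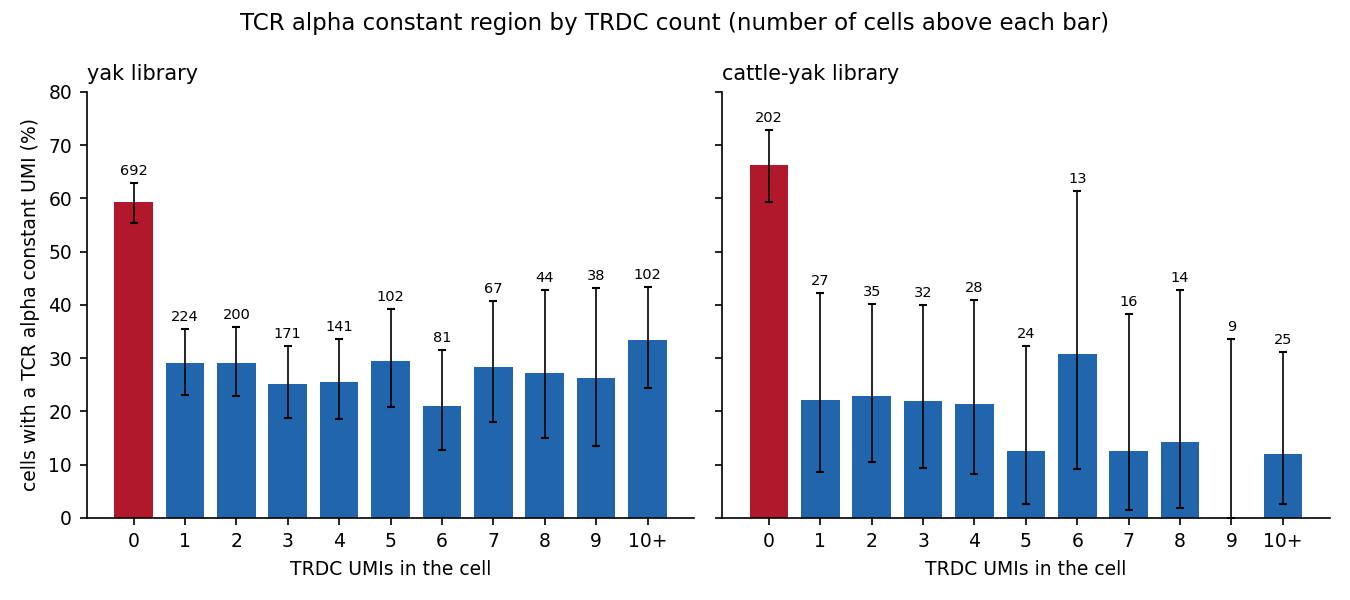
Share of cytotoxic-gated cells (percent, y axis) with a UMI of the T cell receptor alpha constant region by the number of *TRDC* UMIs in the cell (x axis), in each library, with the number of cells above each bar and exact binomial 95% intervals. The bar at 0 UMIs, which holds the members, stands at 59.2% in yak and 66.3% in cattle-yak, and the bars from 1 UMI on stand at or under 33.3%.

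A count of 0 for *TRDC* depends on depth, so the share of members in the gate was followed over ranges of total UMIs. In yak, members made up 57.0% of gate cells with 500 to 1000 UMIs, 51.2% of those with 1000 to 1500 and 34.3% of those with 1500 to 2000. The share was 29.3% between 2000 and 3000 UMIs, 34.4% between 3000 and 5000, and 37.3% above. Members were thus more frequent among shallow cells in yak, with no further fall above 3000 UMIs. In cattle-yak the shares were 42.9%, 48.9%, 47.2%, 42.0% and 59.5% over the same ranges up to 5000 UMIs, and 5 of 10 cells above, with no such fall.

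Within each range of depth up to 5000 UMIs, the alpha constant region was found in a larger share of members than of *TRDC*-positive cells in both libraries. Between 2000 and 3000 UMIs it was found in 69.3% of yak members against 27.7%, and in 65.8% of cattle-yak members against 18.1%. Between 500 and 1000 UMIs the shares were 34.0% against 10.0% in yak and 66.7% against 25% in cattle-yak. Above 5000 UMIs the cattle-yak shares were 20.0% against 60.0%, over 5 cells in each set, and the order there was the other way round.

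**Figure D3:**
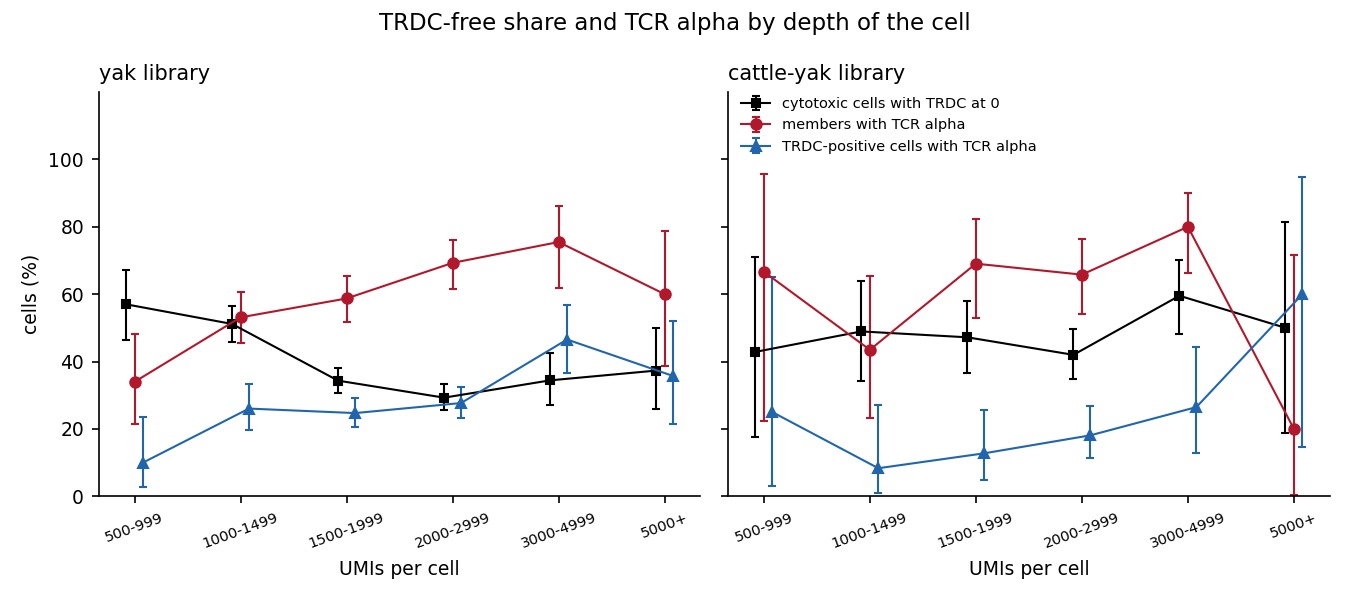
Cytotoxic-gated cells by total UMIs (x axis, 6 ranges) in each library: the share without *TRDC*, and the share with the T cell receptor alpha constant region among members and among *TRDC*-positive cells (percent, y axis), with exact binomial 95% intervals. The yak share without *TRDC* falls from 57.0% to 29.3% and does not fall further in the deeper ranges, and members lie above *TRDC*-positive cells for the alpha chain in every range but the deepest one of cattle-yak.

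A few deep members carried RNA of other cell types. The deepest yak member held 97677 UMIs, of which 227 belonged to the germ cell list, and the next held 58773 with 132. The deepest cattle-yak member held 43738 UMIs with 97 of the germ cell list, and members with 5711 and 5054 UMIs held 46 and 56 of the macrophage list. The 10 deepest members held 18.9% of all member UMIs in yak and 17.1% in cattle-yak. No doublet caller was run, so these barcodes stayed among the members.

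For the whole lists, 14 of 14 germ cell genes had a UMI in yak members, with a summed level of 561 CPM led by *SPATA16* (217 UMIs), and 5 of 14 in cattle-yak members, at 295 CPM led by *UCHL1* (102 UMIs). Macrophage genes summed to 112 CPM over 9 of 9 genes in yak, led by *AIF1*, and to 408 CPM over 8 of 9 genes in cattle-yak, led by *C1QA* with *CD14* at 0. B and plasma cell genes summed to 75.6 CPM in yak, with *MS4A1*, *PAX5* and *BLNK* at 0, and to 51.3 CPM in cattle-yak, with *CD79B*, *PAX5* and *MZB1* at 0. Smooth muscle and pericyte genes summed to 914 CPM, with 661 of their UMIs from *TAGLN*, and to 264 CPM. Endothelial genes summed to 116 and 103 CPM, stromal genes to 81.2 and 121, Sertoli and epithelial genes to 100.8 and 33.0, and neutrophil genes, led by *CSF3R*, to 79.9 and 100.7. Mast cell genes summed to 5.53 and 1.83 CPM, and dendritic cell genes to 28.3 and 1.83 CPM.

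A member with 5 or more UMIs of any 1 of 7 such lists was called marked, a limit chosen after seeing the data. It took in 38 yak members (5.49%) and 12 cattle-yak members (5.94%), against 56 (4.79%) and 5 (2.24%) of the *TRDC*-positive cells. Without marked members the germ cell level fell from 561 to 148 CPM in yak and from 295 to 75.2 CPM in cattle-yak, and the macrophage level from 112 to 34.0 CPM and from 408 to 28.8 CPM. The smooth muscle and pericyte level moved less, from 914 to 609 CPM in yak, where 474 members had a UMI of that list, and from 264 to 239 CPM in cattle-yak. Endothelial genes went from 116 to 89.2 CPM in yak, stromal genes from 121 to 97.3 CPM in cattle-yak, and neutrophil genes there from 100.7 to 104 CPM. B and plasma cell genes fell from 75.6 to 32.4 CPM in yak, but from 51.3 to 44.2 in cattle-yak. Sertoli and epithelial genes fell from 100.8 to 42.1 CPM in yak, but from 33.0 to 28.8 in cattle-yak. Dendritic cell genes fell from 28.3 to 8.92 CPM in yak. The germ cell and macrophage levels thus lay mostly in marked members, as did these 3 in yak. The smooth muscle, endothelial, stromal and neutrophil levels did not. Marking was set on counts of 7 of these lists, so part of the fall in those lists follows from the marking itself. Ratios are also given with marked cells left out where that moved them past their interval.

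**Figure D4:**
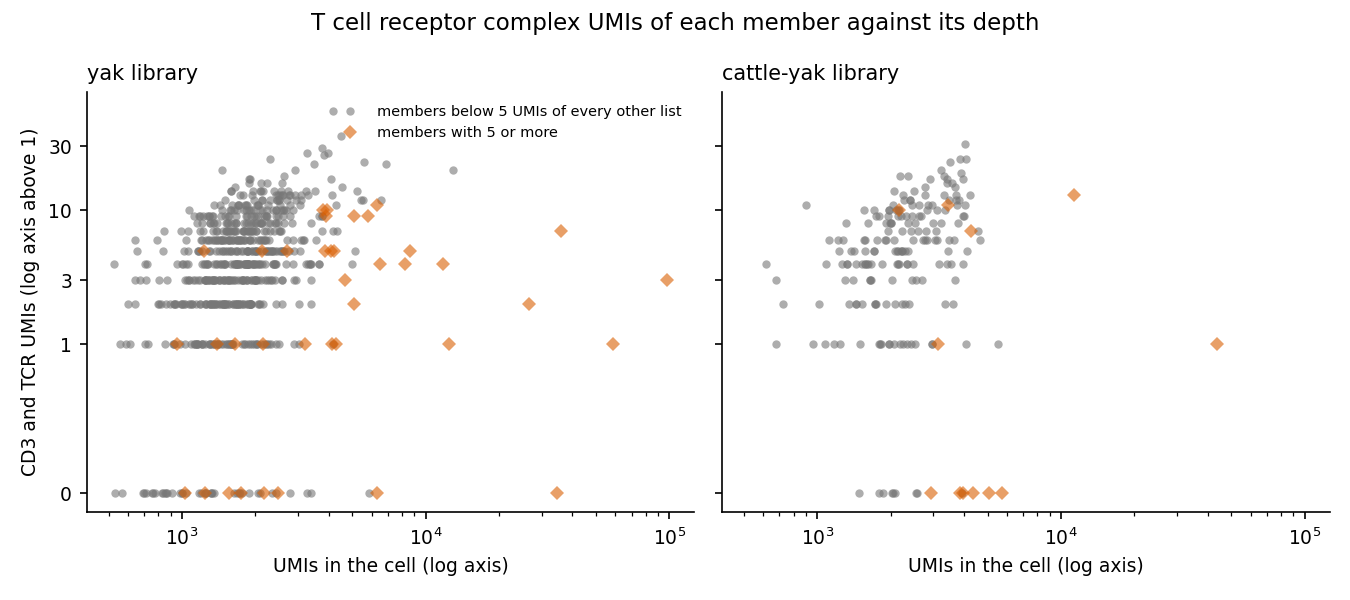
CD3 and T cell receptor UMIs (y axis) of each of the 692 yak and 202 cattle-yak members against its total UMIs (x axis, log scale), with the 38 and 12 marked members as orange diamonds. The deepest members, up to 97677 UMIs in yak and 43738 in cattle-yak, are marked, and no marked member holds more than 13 receptor UMIs, where unmarked members reach 55 in yak and 31 in cattle-yak.

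Against all other cells under the mitochondrial limit, members were higher for most genes of the T cell receptor complex and of the receptors shared with natural killer cells. Of 12878 genes compared in yak, 571 (4.43%) were at least 1 log2 unit higher in members, and of 10739 in cattle-yak, 598 (5.57%). More genes, 3479 and 3551, were at least as far in the other direction, and 5934 and 4713 without marked members. With 1 library a side, this fold is a size and not a test, and the medians of all genes were -0.39 and -0.52. In yak, 15 of 17 receptor complex genes compared, 13 of 16 natural killer receptors and 5 of 9 granule genes were at least 1 log2 unit higher, and in cattle-yak 9 of 9, 11 of 14 and 6 of 8. Of the 20 largest ratios, 8 in yak and 12 in cattle-yak belonged to genes with a name or description used here, and the other features are not named. The named ones included CD94 (log2 ratio 3.49 in yak and 4.82 in cattle-yak), the alpha constant region (3.04 and 4.24), *CD96* (2.99 and 4.23) and *GZMM* (3.11 and 3.91). ENSBGRG00000010946, described as the chemokine CCL4, stood at 3.42 and 4.29. *EOMES* (3.32), the T cell kinase *TXK* (3.16) and the signalling adaptor *SH2D1A* (3.10) were among the 20 in yak, and *HCST* (4.12), *IL2RB* (4.04), *CRTAM* (3.99) and *FASLG* (3.97) in cattle-yak. Without marked members the yak ratios were 3.84 for CD94, 3.70 for CCL4, 3.46 for *GZMM*, 3.38 for the alpha constant region and 3.30 for *CD96*, and in cattle-yak 4.38 for CCL4 and 4.49 for the alpha constant region. The gate used 3 genes of the same cells, so these ratios describe which transcripts travelled with them.

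Against *TRDC*-positive cells, members were close for most transcripts. In yak, 281 of 4404 genes were at least 1 log2 unit higher and 33 lower (7.13% of genes), and 7 and 16 of 3365 (0.684%) once marked cells were left out of both sets. In cattle-yak, 20 of 1004 genes were higher and 6 lower (2.59%), and 5 and 4 of 838 (1.07%) without marked cells. The largest yak ratios with all cells belonged to *TDRD5*, a germ cell gene, and to the axoneme genes *RSPH9* and *CCDC40* among others, none of which was among the 10 largest without marked cells. The medians of all genes were 0.07 and -0.01. As the sets share the gate, each gene is given with both levels. At these shares of all genes a short list with none past the fold lies near the background. Counts by list in this comparison are thus a description. Medians by list in it were taken over all cells unless stated. Leaving out marked cells took yak members from 1626283 to 1233862 UMIs and yak *TRDC*-positive cells from 2718211 to 2343842. In cattle-yak it took them from 546023 to 452095 and from 527659 to 507510. Marked cells thus held a larger part of the UMIs of members, and the effect on these medians was not tested.

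Of the CD3 chains, which carry the receptor signal into the cell, *CD3D* had a lower summed level in members while marked cells were kept. *CD3D* stood at 382 against 469 CPM in yak and 280.2 against 339 in cattle-yak, and the log2 ratios without marked cells were -0.10 (-0.24 to 0.05) and -0.07 (-0.40 to 0.26), intervals that held 0. *CD247*, the zeta chain, stood at 30.1 against 62.9 CPM in yak, a log2 ratio of -1.04 (-1.55 to -0.60), and at 25.6 against 37.9 in cattle-yak. In the list of receptor complex genes, 1 of 11 compared in yak was past the fold upwards, the alpha chain, and 1 downwards, *CD247*, with a median of -0.47. In cattle-yak the alpha chain alone was past it among 7 genes, with a median of -0.24.

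Receptors shared with natural killer cells that had 100 summed counts numbered 13 in yak and 9 in cattle-yak. None was past the fold against *TRDC*-positive cells (7.13% and 2.59% of all genes were). Their medians, with marked cells kept, were -0.35 and -0.43. CD94 stood at 337 and 341 CPM in yak and 161 and 167 in cattle-yak, with log2 ratios of 0.18 (0.02 to 0.34) and 0.20 (-0.25 to 0.65) without marked cells. Its partner, the NKG2A-like chain, was lower in members in both libraries, at 294 against 459.9 CPM and 247 against 379, with log2 ratios of -0.64 (-0.80 to -0.49) and -0.61 (-0.94 to -0.29), and -0.45 and -0.39 without marked cells. *IL2RB*, the receptor chain through which interleukins 2 and 15 sustain cytotoxic cells, was also lower, at 295 against 574 and 454 against 771, with log2 ratios of -0.96 (-1.11 to -0.81) and -0.76 (-0.998 to -0.53), and -0.74 and -0.58 without marked cells. CD7 (ENSBGRG00000006053), an early T and natural killer cell glycoprotein, gave -0.63 (-0.79 to -0.47) and -0.89 (-1.22 to -0.58), and -0.43 and -0.68 without marked cells.

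The intervals of these 3 genes excluded 0 in both libraries, also without marked cells. *KLRK1*, the activating receptor NKG2D, stood at 49.8 against 33.8 CPM in yak, a log2 ratio of 0.54 (0.11 to 1.004), and at 44.0 against 47.4 in cattle-yak, -0.11 (-0.98 to 0.76). The costimulatory receptor *CD244* was lower in members, at 36.3 against 64.0 CPM and 29.3 against 87.2, the last over 16 and 46 UMIs, under the limit of 100, with a log2 ratio of -1.54 (-2.49 to -0.73). *CD96* (-0.31 and -0.43), *CRTAM* (-0.40 and -0.45) and *SLAMF7* (-0.41 and -0.73), adhesion and costimulatory receptors of cytotoxic cells, had negative log2 ratios in both libraries. Without marked cells the ratio of *CD96* in yak was -0.15 (-0.31 to 0.02), an interval that held 0.

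Of the granule genes, *GZMM* stood at 137 against 159 CPM in yak and 87.9 against 87.2 in cattle-yak. *GZMK*, a granzyme of memory-type cytotoxic cells, stood at 159 against 245, a log2 ratio of -0.62 (-0.83 to -0.41), and at 49.4 against 72.0, -0.53 (-1.31 to 0.21). *PRF1*, the pore-forming perforin, was near the floor, with 31 UMIs in yak members (19.1 against 18.4 CPM) and 14 in cattle-yak members (25.6 against 47.4). None of 7 granule genes compared in yak was past the fold (7.13% of all genes were), with a median of -0.22. The granzyme B and granulysin genes were not analysed here.

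Among ligands and cytokines other than *CCL5*, a gene of the rule, the CCL4 gene was the most abundant and was higher in members of both libraries. In yak its level was 7129.8 CPM (7001 to 7261) against 6558, which gave 0.12 (0.09 to 0.15), and 0.27 without marked cells. It stood at 4068 CPM (3900.2 to 4240.4) against 2456 in cattle-yak, a log2 ratio of 0.73 (0.63 to 0.83), and 0.82 without marked cells. *LTB*, a membrane cytokine of lymphocytes that shapes lymphoid stroma, gave 0.17 (-0.00 to 0.34) and 0.55 (0.24 to 0.87), and 0.37 (0.20 to 0.54) in yak without marked cells. *FASLG*, the death receptor ligand, was level in yak at 56.6 against 57.4 CPM, and stood at 54.9 against 24.6 in cattle-yak over 30 and 13 UMIs. Interferon gamma (*IFNG*) was low on both sides, at 32.0 against 37.9 CPM and 20.1 against 28.4, and *TNF* at 15.4 against 15.8 and 9.16 against 22.7. None of 8 genes compared in yak and 5 in cattle-yak was past the fold (7.13% and 2.59% of all genes were).

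**Figure D5:**
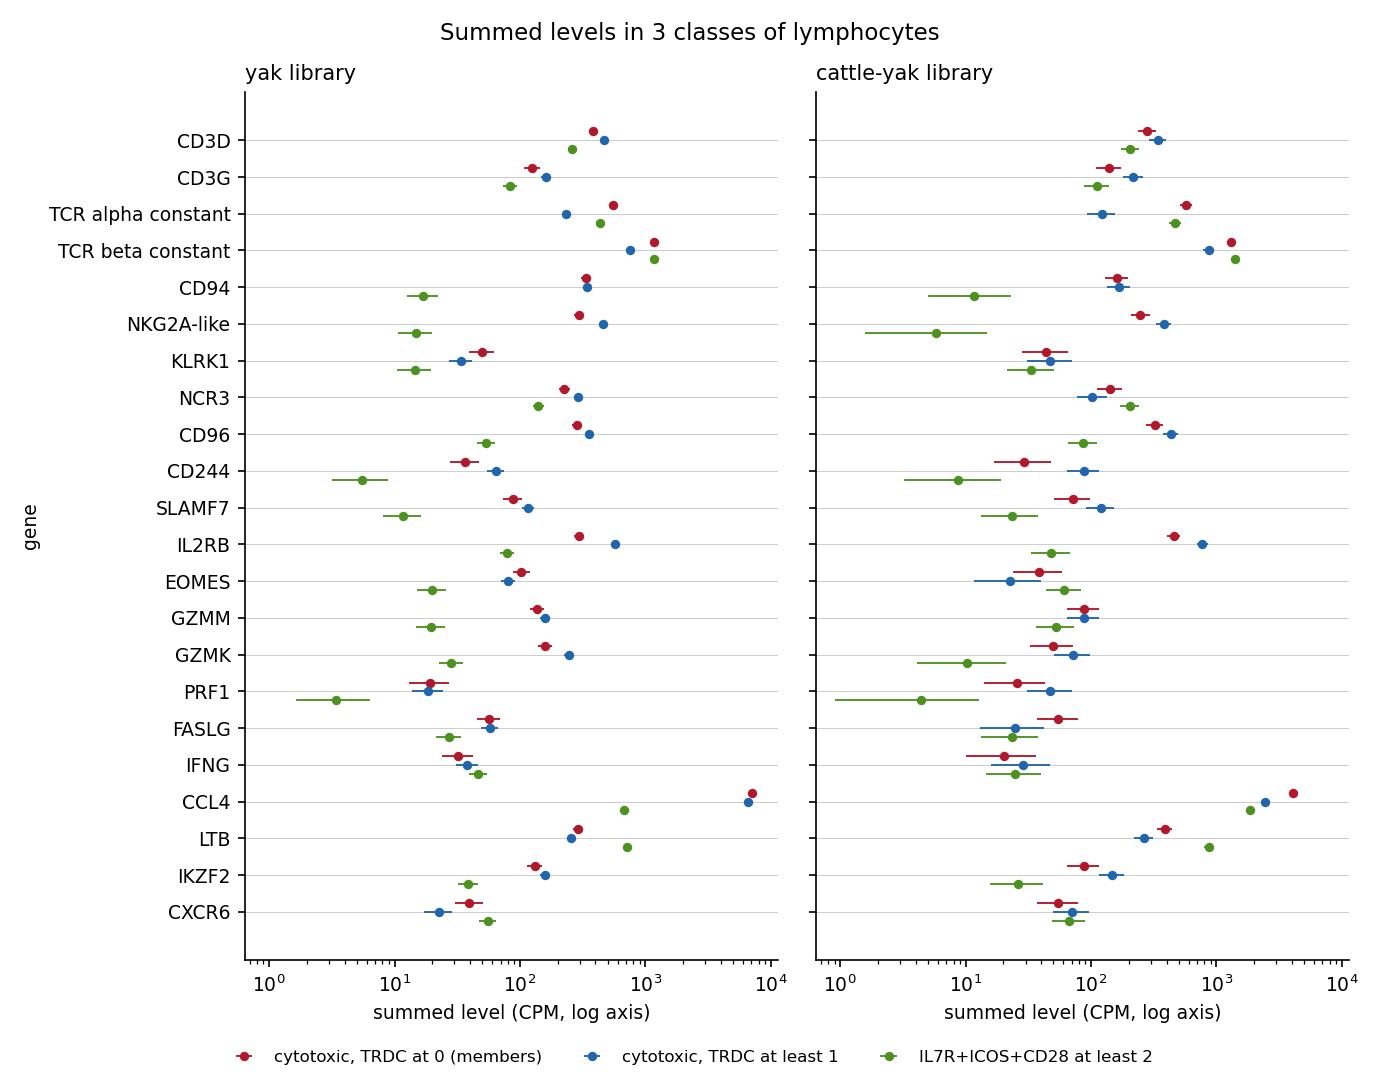
Summed level (CPM, x axis, log scale) of 22 genes in members, *TRDC*-positive cells and *IL7R*, *ICOS* and *CD28* cells of the yak and the cattle-yak library, with exact Poisson 95% intervals. The members lie with *TRDC*-positive cells for CD94, granzymes and *CD96*, and with the *IL7R*, *ICOS* and *CD28* cells for the T cell receptor alpha constant region, which stands at 554 and 573 CPM in members.

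Of the transcription factors of cytotoxic cells, none of 14 compared in yak or 6 in cattle-yak was past the fold (7.13% and 2.59% of all genes were). *EOMES* was somewhat higher in yak members, at 103 against 80.6 CPM, a log2 ratio of 0.35 (0.05 to 0.65), and the interval in cattle-yak, 0.73 (-0.33 to 1.91), held 0. *RUNX3*, which directs the cytotoxic T cell programme, stood at 319 against 335 and 368 against 489. *IKZF2*, which encodes Helios, stood at 131 against 158 and 87.9 against 146. *TBX21*, which encodes T-bet, was low in members, at 7.99 CPM in yak and 12.8 in cattle-yak.

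Genes of tissue residence were abundant, and the 3 receptors of recirculation given here were at few UMIs. *RGS1*, a regulator of chemokine receptor signals that resident T cells express, stood at 2458 CPM in yak members against 2959 and at 1714 against 1950.1 in cattle-yak. *CXCR4*, a chemokine receptor, stood at 825 and 681, and *CD69*, an early activation antigen that retains cells in tissue, at 71.3 and 64.1. By contrast, members held 2 and 0 UMIs of *CCR7*, 6 and 1 of *S1PR1*, and 3 and 0 of *CX3CR1*, receptors that guide lymphocytes into lymph nodes, out of tissue or through blood. None of 12 homing genes compared in yak or 6 in cattle-yak was past the fold against *TRDC*-positive cells (7.13% and 2.59% of all genes were). *CXCR6*, another receptor of tissue lymphocytes, gave log2 ratios of 0.78 (0.28 to 1.34) and -0.35 (-1.10 to 0.38).

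The immediate early genes, which cell isolation itself can induce, were abundant and level between the 2 sets. *JUN* stood at 2686 CPM in yak members and 2253 in cattle-yak members, and the median log2 ratio to *TRDC*-positive cells was 0.01 over 22 genes in yak and -0.12 over 13 in cattle-yak. Proliferation genes were found in few members. *TOP2A*, a topoisomerase of dividing cells, was counted in 37 yak and 17 cattle-yak members, and its log2 ratio in yak was 0.74 with all cells and 0.41 without marked cells. The median of 10 proliferation genes in yak was 0.56, and 0.44 over 6 genes without marked cells.

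Some transcripts outside these lists differed from *TRDC*-positive cells in yak. ENSBGRG00000004722 stood at 268 CPM in yak members against 79.5, from 436 UMIs in 82 members, and at 130.0 against 73.9 in cattle-yak, from 71 UMIs in 12 members. After thinning it was found in 10.5% of yak members against 2.65%, and in 3.06% against 3.26% in cattle-yak. ENSBGRG00000005455 stood at 317 against 119.6 and 174 against 72.0, with log2 ratios of 1.40 (1.20 to 1.61) and 1.26 (0.72 to 1.86). Both were counted in a minority of members, up to 29 and 58 UMIs in 1 yak cell. In the other direction, ENSBGRG00000007724, described only as an uncharacterised locus, stood at 139 CPM against 493 in yak and 137 against 324 in cattle-yak, and *SEMA4D*, a semaphorin of T cells, at 43.0 against 112 and 130.0 against 171. The largest ratios of single genes could rest on single cells. Of 1194 UMIs of the immunoglobulin gene *IGHM* in yak *TRDC*-positive cells, 801 came from 1 cell, and its log2 ratio of -2.47 became -0.96 without the highest cell of each set. In cattle-yak, *CXCL9*, a chemokine that interferon induces in macrophages, stood at 699.6 CPM in members against 3.79, with 195 of its 382 UMIs in 1 member, and its ratio of 7.19 became 1.74 without marked cells.

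Cells of the same libraries with 2 or more UMIs of *IL7R*, *ICOS* and *CD28*, receptors of memory and helper T cells, and no *TRDC*, *CDH5*, *DCN* or *LMOD1*, numbered 760 in yak and 255 in cattle-yak. Against them, 295 genes were at least 1 log2 unit higher in yak members and 1162 lower of 5180 (28.1%), and 66 and 76 of 2903 (4.89%) without marked cells. In cattle-yak 29 were higher and 15 lower of 1113 (3.95%), and 21 and 25 of 900 (5.11%) without marked cells. The receptor genes were closer between the 2 sets than across the *TRDC* split. The alpha constant region stood at 554 CPM in yak members against 433 and 573 against 469.9 in cattle-yak, with log2 ratios of 0.05 and 0.41 without marked cells, and the beta region at 1174 against 1178 and 1308 against 1392, with -0.31 (-0.40 to -0.23) and -0.00 (-0.15 to 0.14) without marked cells. The beta region was thus lower in yak members once marked cells were left out.

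Most receptors shared with natural killer cells that were compared were higher in members than in these cells. Members were gated on cytotoxic genes and on no UMI of *IL7R*, *ICOS* or *CD28*, and these cells on 2 or more. The gates favour such differences, so here and in the next 2 paragraphs they are a description. The counts by list hold all cells, and leaving out marked cells took the yak comparison cells from 2911454 to 1774095 UMIs. In yak, 8 of 12 such genes compared were at least 1 log2 unit higher in members (5.69% of all genes were) and none lower, with a median of 1.74. In cattle-yak 4 of 6 were higher (2.61% of all genes), with a median of 1.20. CD94 stood at 337 CPM against 16.8 in yak and 161 against 11.6 in cattle-yak, and the NKG2A-like chain at 294 against 14.8 and 247 against 5.82. The log2 ratios of the NKG2A-like chain were 4.23 (3.86 to 4.80) and 5.19 (4.02 to 7.31). *CD96* (2.02 and 1.97 without marked cells) and *IL2RB* (1.62 and 3.31) were also higher in members of both libraries. *NCR3*, the activating receptor NKp30, was an exception, at 226 against 140.1 CPM in yak and 141 against 204 in cattle-yak.

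Of the effector genes, *GZMK* stood at 159 against 28.2 CPM in yak and 49.4 against 10.2 in cattle-yak, and *PRF1* at 19.1 against 3.43 and 25.6 against 4.36. *GZMM* was higher in yak members, with a log2 ratio of 2.74 (2.38 to 3.25), and less so in cattle-yak, 0.74 (0.09 to 1.41). The CCL4 gene stood at 7129.8 against 680.4 and 4068 against 1839. *EOMES* differed in direction, at 103 against 19.9 CPM in yak, a log2 ratio of 2.31 (1.93 to 2.82), and 38.5 against 61.1 in cattle-yak, where the interval of -0.65 (-1.498 to 0.12) held 0. *IKZF2* was higher in members in both, with 1.73 (1.42 to 2.097) and 1.71 (0.94 to 2.62), and 1.36 in yak without marked cells.

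Some named genes of helper and memory T cells were lower in members, but no list of such genes was counted. *GPR183*, an oxysterol receptor that guides lymphocyte migration, stood at 22.8 against 259 CPM in yak and 36.6 against 345 in cattle-yak. *CD40LG*, the ligand by which helper T cells license other cells, had 5 UMIs in yak members against 174 and 0 against 37 in cattle-yak, and *CTLA4*, an inhibitory receptor, had 1 against 208 and 0 against 5, the last too few to tell the sets apart. *CD4* had 3 UMIs in yak members and 0 in cattle-yak members against 63 and 12. *DPP4*, a surface peptidase, gave log2 ratios of -2.81 (-3.52 to -2.31) and -2.81 (-4.27 to -1.78), the transcription factor *BHLHE40* -1.49 (-1.90 to -1.14) and -2.30 (-3.24 to -1.55), and *LTB* -1.30 (-1.45 to -1.16) and -1.16 (-1.40 to -0.93). The yak ratios of *BHLHE40* and *LTB* were -1.99 and -1.60 without marked cells.

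Within the members, the CD3 chains were used to compare cells with and without receptor complex transcripts. No UMI of *CD3D*, *CD3e* or *CD3G* was counted in 222 yak and 62 cattle-yak members, 1 UMI in 209 and 71, and 2 or more in 261 and 69. Members without CD3 were the shallower in both libraries, with a median of 1581.5 against 1897 UMIs in yak and 2127 against 2778 in cattle-yak. Between the outer classes, 103 genes were higher and 13 lower of 1244 in yak (9.32%), and 12 and 6 of 326 in cattle-yak (5.52%). With marked cells left out, 3 and 4 of 900 (0.778%) and 1 and 1 of 251 (0.797%) were past the fold. The classes were cut on the counts of genes that travel with the receptor, so the values are a description.

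The alpha constant region was present without CD3 UMIs too. It stood at 394 CPM in yak members without CD3 and 781 in those with 2 or more, and at 307 and 784 in cattle-yak, and the log2 ratios without marked cells were -0.51 (-0.77 to -0.27) and -0.76 (-1.23 to -0.31). CD94 gave -0.34 (-0.66 to -0.03) and -0.25 (-1.07 to 0.52) in the same comparison. None of the natural killer receptors compared, 8 in yak and 2 in cattle-yak, was past the fold. Of all genes 9.32% and 5.52% were, and 0.778% and 0.797% without marked cells, so none in so short a list lies near the background. *GZMM* was lower in members without CD3, at -0.68 (-1.23 to -0.16) in yak, with an interval that held 0 in cattle-yak. Members without CD3 carried more *LTB* in yak, at 0.99 (0.68 to 1.31), but not in cattle-yak, at -0.27 (-0.84 to 0.28), and more *CXCR4* in cattle-yak, at 1.06 (0.64 to 1.49), than in yak, at 0.12 (-0.08 to 0.32). *JUN* was higher without CD3 in both, at 0.44 (0.33 to 0.55) and 0.52 (0.30 to 0.75).

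No UMI of any CD3 or receptor gene was counted in 49 yak and 15 cattle-yak members, of which 8 and 6 were marked. The other 41 and 9 were shallow in yak, with a median of 1243 UMIs, and held 2049 in cattle-yak. Their CCL4 level was 6895 CPM (6250.1 to 7587) in yak and 1869 CPM (1323 to 2566) in cattle-yak, and *PTPRC*, the pan-leukocyte antigen CD45, was counted in 22 and 7 of them. CD94 was counted in 10 of 41 (24.4%) and 2 of 9, against 39.6% and 21.8% of all members, and the NKG2A-like chain in 3 and 2. *NCR1*, the receptor NKp46 that marks natural killer cells across mammals, had no UMI in these or any other members, and *KLRF1* had 2 UMIs in the yak cells and 0 in the cattle-yak cells. A count of 0 in these few cells allowed a level of up to 49.4 CPM in yak and 148 CPM in cattle-yak, so that a 0 in the cattle-yak cells does not leave out a level such as that of *KLRK1*.

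Some single effector genes and some germ line transcripts differed in summed level between yak members and cattle-yak members. Some of both kinds also separated the libraries outside the members. By list, the few cytotoxic genes past the fold towards yak, counted below, lay near the share of all genes (17.7%). Of 2626 genes compared, 466 were at least 1 log2 unit higher in yak members and 21 lower (18.5%), with a median of 0.33, and 107 and 9 of 1717 (6.76%) without marked cells, with a median of 0.30. Transcripts of the germ line were among those with large ratios, and of the germ cell list 2 of 4 genes compared were past the fold towards yak. *DKKL1*, a sperm acrosome gene, had 1276 UMIs in yak members and 3 in cattle-yak members, against 924 and 38.6 CPM in all other cells, and 150 and 3 UMIs in unmarked members. *TSACC*, a testis cochaperone gene, had 822 and 2 UMIs in members, and 637 and 24.3 CPM in other cells.

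Of the genes of cytotoxic cells, CD94 was higher in yak members, at 337 CPM (309 to 366) against 161 CPM (129 to 199), a log2 ratio of 1.06 (0.74 to 1.41). *GZMK* stood at 159 CPM (140.5 to 179.9) against 49.4 CPM (32.6 to 71.9), 1.67 (1.11 to 2.32), and *EOMES* gave 1.39 (0.76 to 2.15). *ZEB2*, a transcription factor of terminal effector cells, gave 1.30 (0.52 to 2.25), and the CCL4 gene 0.81 (0.74 to 0.88). *RGS1* (0.52 (0.42 to 0.62)) and *ITGA4* (0.72 (0.39 to 1.07)) were likewise higher in yak members. All these intervals lay above 0, beside a median of 0.33 over all genes, and all of these ratios were as large or larger without marked cells, with 1.01 for the CCL4 gene and 0.77 for *RGS1*. CD94 was also higher in yak outside the members, at 29.0 against 4.73 CPM in all other cells and 341 against 167 in *TRDC*-positive cells. The CCL4 gene stood at 664.5 against 206.4 CPM and 6558 against 2456 in these sets. In *IL7R*, *ICOS* and *CD28* cells it was lower in yak, at 680.4 against 1839 CPM.

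The receptor constant regions were close between the libraries, with -0.05 (-0.24 to 0.14) for the alpha and -0.15 (-0.28 to -0.03) for the beta region. The latter was -0.02 (-0.14 to 0.11) without marked cells. *CD3D* was higher in yak members, at 0.45 (0.19 to 0.71), and at 0.59 (0.33 to 0.86) without marked cells. The medians over all genes were 0.33 and 0.30 in these 2 comparisons, the first of them inside the interval of *CD3D*. The intervals of *CD3e*, -0.08 (-0.55 to 0.42), and *CD3G*, -0.16 (-0.54 to 0.24), held 0. *IL2RB* was lower in yak members, at 295 CPM (269 to 323) against 454 CPM (399 to 514), -0.62 (-0.85 to -0.39), as was *LTB*, -0.42 (-0.66 to -0.18). *SEMA4D* (-1.57 (-2.09 to -1.10)) and *LY6E* (-1.13 (-1.41 to -0.86)), an interferon-induced surface protein, were lower in yak members by more. By list, 1 of 4 granule genes, 1 of 10 natural killer receptors and 2 of 9 transcription factors were past the fold towards yak (17.7% of all genes were), none of 7 receptor complex genes was, and none of these lists had a gene past it towards cattle-yak. When CPM was computed without rRNA and mitochondrial features, the median over all genes fell from 0.33 to 0.08, and 336 genes were past the fold towards yak and 46 towards cattle-yak. The mitochondrial share was the higher in cattle-yak members, as given above, and this change of denominator shifts the ratios of single genes alike, so that CD94 came to 0.81, under the fold. Cross and library cannot be told apart here, and the part of the members' depth in these ratios was not tested.

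Several genes that mark other states had no or few UMIs in members. *PDCD1*, *TIGIT* and *FOXP3*, markers of exhausted and regulatory T cells, had no UMI in either library, and *CTLA4* had 1 UMI in yak and none in cattle-yak. *KLRG1*, a receptor of terminal effector cells, had 5 and 10 UMIs. At the depth of these members, a count of 0, taken to allow 3 UMIs, allowed up to 1.84 CPM in yak and 5.49 CPM in cattle-yak. The genes of CD8, CD2, CD16 and KLRB1 were not analysed here.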

How the data were processed

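Single-cell libraries of yak and cattle-yak testis were analysed from the deposited matrices, which hold counts of UMIs per gene and barcode that the authors obtained with Cell Ranger (version 5.0.0 in the matrix headers, 2.1.1 in the submitters' processing notes). Both libraries use 1 yak annotation of 26961 features, 37 of them mitochondrial, and the study names the genome build BosGru3.0. The study also kept cells within 2 standard deviations of the mean genes and UMIs. That limit was tried only as an alternative.

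Counts were summed over the cells of a group and library, divided by the group's UMIs and given as CPM with exact Poisson 95% intervals. The level that a count of 0 allows was instead set at 3 UMIs, which lies below the upper end of that interval. Shares have exact binomial (Clopper-Pearson) 95% intervals. Log2 ratios have 1 CPM added to each side, their intervals are exact conditional ones of the plain ratio, and genes needed 100 summed counts. A log2 ratio of at least 1 was called past the fold, and the genes of the rule were left out. With 1 library per group no test was run. Genes were named when on a list or among the 10 largest or smallest ratios (20 against all other cells) with 30 counts in the higher group. Cells were thinned to 1000 UMIs for shares. The members and lists were chosen with earlier results of these data known. Gene names of unnamed features follow descriptions in the study's gene tables. No doublet caller was run. The level of 1 gene is not reported here. Leaving out marked cells, and the cell with the most UMIs of a gene, were alternatives added after seeing the data. Python 3.11.15, numpy 2.4.6, scipy 1.17.1, pandas 2.3.3 and matplotlib 3.10.9 were used, and the sums and ratios were tested on simulated data.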

Additional observations from a re-analysis of the deposited data

Results flagged for a closer look

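A few genes had log2 ratios of opposite sign in the 2 libraries, each at least 0.5 in size with a counting interval that left out 0. With 1 library each, the difference between the libraries was not tested.

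Against *TRDC*-positive cells, *MLF1* stood at 299 CPM in yak members against 196 (log2 ratio 0.61) and at 76.9 against 123 in cattle-yak (-0.67), and without marked cells the ratios were 0.07 and -0.70. *KLF4*, a transcription factor, stood at 92.2 against 62.2 (0.56) and 82.4 against 127 (-0.62), and kept both signs without marked cells, at 0.57 and -1.29. *CXCL9* gave -0.56 and 7.19, and -0.87 and 1.74 without marked cells, the last over 7 UMIs in members.

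Against *IL7R*, *ICOS* and *CD28* cells, *NCR3* gave 0.69 in yak and -0.53 in cattle-yak, and 0.35 and -0.40 without marked cells. *GSTM3*, a glutathione transferase, gave -0.62 and 1.05, and *TOP2A* 0.64 and -0.84. Both lost the opposition of sign without marked cells, at 0.64 and 0.89 for *GSTM3* and -0.65 and -0.36 for *TOP2A*. ENSBGRG00000009649 gave 0.65 and -0.56, and 0.27 and -0.50 without marked cells.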

How the results depend on the processing

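Over the alternatives that can move a single gene, 4617 values were recomputed. Of these, 3784 moved by less than their counting interval, 822 moved by more and 11 were counted as sign changes. None of the 11 came from leaving out marked cells, so they do not hold the yak sign changes of *GSTM3* and *TOP2A* given above. The share of members was 6.73% in yak with a limit of 3 rule UMIs, 5.12% with a limit of 8, and 3.51% among cells of at least 2000 UMIs. In cattle-yak it was 1.89% with a limit of 8, 1.71% under a mitochondrial limit of 20% and 2.12% at 2000 UMIs. The share without the deepest 10% of each group is not given, since leaving out members alone sets it by construction.

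Counts of genes past the fold depended on deep cells and on the count limit. Against *TRDC*-positive cells the yak count of 314 became 688 and 71 at limits of 3 and 8 rule UMIs, 29 within 2 standard deviations, 58 with means of per-cell CPM, 556 and 2360 from 50 and 1 summed counts, 22 without the deepest cells and 23 without marked cells. The cattle-yak count of 26 became 14, 13, 87, 5198, 8 and 9 under the last 6 of these. Against *IL7R*, *ICOS* and *CD28* cells the yak count of 1457 became 154 within 2 standard deviations, 706 with per-cell means, 4924 from 1 count, 135 without the deepest cells and 142 without marked cells, and the cattle-yak count of 44 became 27 under the mitochondrial limit of 20%, 141 from 50 counts and 5258 from 1. Between CD3 classes the yak count of 116 became 570 at 3 rule UMIs, 30, 38, 314, 6058, 5 and 7 under the same 6 alternatives, and the cattle-yak count of 18 became 32 under the mitochondrial limit, 9 with per-cell means, 76, 5544, 2 and 2. Between the libraries the count of 487 became 805 and 225 at 3 and 8 rule UMIs, 125 within 2 standard deviations, 935, 5739, 110 and 116. Against all other cells the yak count of 4050 became 6665 without marked cells. Without mitochondrial and rRNA features in the denominator, 365 genes were higher and 1123 lower against *IL7R*, *ICOS* and *CD28* cells in yak, and 336 and 46 between the libraries. The cause of these moves was not tested, other than that lower count limits compare more genes.

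Outside that tally, signs changed without marked cells for *GSTM3* (0.64) and *TOP2A* (-0.65) against yak *IL7R*, *ICOS* and *CD28* cells. Within it, signs changed for ENSBGRG00000020007 (2.47 at 3 rule UMIs) and ENSBGRG00000008342 (-1.65 at 8) against yak *TRDC*-positive cells. Between yak CD3 classes they changed at 8 for ENSBGRG00000008342 (-0.41) and ENSBGRG00000020609 (-1.18). With per-cell means they changed for ENSBGRG00000025419 (-0.080) and *UCHL1* (-0.062) against cattle-yak *TRDC*-positive cells and *SBNO1* (-0.59) between cattle-yak CD3 classes. Without the cell with the most UMIs, ENSBGRG00000025999 became -0.15 against yak *TRDC*-positive cells and -0.74 between yak CD3 classes, and between cattle-yak CD3 classes *PSIP1* became -0.32 and *SBNO1* -1.29. No paired analysis was run, and each cross is 1 library. Sets of cells were compared within each library, and the libraries, of different crosses, were not taken as replicate pairs.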
